A study of Mus musculus with 16 samples.

Results

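Genes that mark activated microglia and the macrophages of the subretinal space were followed in nm3342 mutant and wild-type mice, in tissue that joined the retina with its retinal pigment epithelium (RPE). The set holds 10 genes, Itgax, Pirb, Trem2, Clec7a, Lyz1, Lyz2, Cst7, Gpnmb, Lgals3 and Spp1, and takes in every non-control probe whose RefSeq accession belongs to any of them. The microarray held 55681 non-control probes in all, of which 27235 could be named, for 20660 genes. The rule found 9 probes, 1 for each gene except Clec7a, for which no probe accession matched in the gene table used here, so Clec7a (the fungal glucan receptor Dectin-1) is named without a value. All 9 measured genes passed the filter on dim probes and stood among the 19028 genes tested. The genes had been chosen from earlier results of these same arrays, in which several of them differed between the groups. They were well above background on all 16 arrays, except Itgax, which was not on wild-type 1-month replicate 3.

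The samples fell into 4 groups of 4 arrays: nm3342 mutants at 1 year, wild types at 1 year, nm3342 mutants at 1 month and wild types at 1 month. All 16 carry labels of strain background C57Bl/6J and male sex. RNA of retina and RPE was pooled within a sample and their shares are not known. The title of the series calls nm3342 mice a candidate model for serous detachment, a lifting of the retina off the RPE by fluid. No label names the gene that is mutated, and the genotype could not be checked by a gene's level.

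Microglia are the resident macrophages of the retina. In a healthy young retina they sit in the inner and synaptic layers, and with age or injury some are found in the subretinal space, between photoreceptors and RPE, where they take up debris. A microglial cell that is loaded with debris or lipid switches on a shared set of genes for lipid sensing, lysosomal digestion and adhesion, in part through the receptor Trem2 and its adaptor Tyrobp. Most of the 10 genes belong to that set. Several are also made elsewhere in the eye: Gpnmb by pigment cells, Lgals3 by corneal and other epithelia and Spp1 by retinal ganglion cells.

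The promoter stretches of 5 of the genes called higher with age in both genotypes are shown. Lgals3 and Cst7 were also called in both and are not shown. The stretches of Lgals3, Cst7, Lyz1 and Lyz2 hold no match to the motifs marked further below. Each stretch is the 120 bases before the RefSeq transcription start, 5′ to 3′ on the gene's strand, in build GRCm38.p6. Lyz1 and Lyz2 are neighbouring lysozyme genes on chromosome 10, at chr10:117292869-117292988 (minus strand) and chr10:117282273-117282392 (minus strand). Capitals mark the 9 of 120 bases at which this pair differ, so the stretches are 92.5% identical.
Lyz1: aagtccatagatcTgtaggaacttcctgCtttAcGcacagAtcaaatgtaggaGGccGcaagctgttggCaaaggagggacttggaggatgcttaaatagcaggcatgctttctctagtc
Lyz2: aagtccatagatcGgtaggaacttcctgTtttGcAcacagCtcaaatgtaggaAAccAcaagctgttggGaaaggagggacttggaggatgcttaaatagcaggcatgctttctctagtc

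In the next 3 stretches capitals mark a match, on either strand, to GAGGAAG, a sequence bound by the myeloid factor PU.1 and other ETS factors, or to TGANTCA, the AP-1 sequence. They lie at chr7:3720383-3720502 (minus strand) for Pirb, chr7:128129430-128129549 (plus strand) for Itgax and chr17:48346281-48346400 (plus strand) for Trem2.
Pirb: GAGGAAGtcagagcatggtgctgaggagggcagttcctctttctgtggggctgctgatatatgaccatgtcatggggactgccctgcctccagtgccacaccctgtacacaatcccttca
Itgax: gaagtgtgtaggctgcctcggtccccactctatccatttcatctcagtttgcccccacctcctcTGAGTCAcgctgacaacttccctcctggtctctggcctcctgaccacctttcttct
Trem2: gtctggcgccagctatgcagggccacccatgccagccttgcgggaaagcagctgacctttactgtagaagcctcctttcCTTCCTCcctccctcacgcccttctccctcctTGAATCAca

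Over the 250 bases before a start, on both strands, GAGGAAG stood in the promoters of 3 of the 10 genes (Pirb, Trem2 and Spp1) and in 10.6% of 32851 mouse promoters. TGANTCA stood in 2 of the 10 (Itgax and Trem2) and in 6.75% of all promoters. The E-box CACGTG, a target of MITF and TFE factors, stood in none of the 10 and in 6.02% of all, and the related CATGTG stood in 1, Pirb, and in 12.3%. The motif TATAAA stood in 1, Spp1, and in 12.4%. No 2 of these motifs overlapped in a stretch shown. A gene counted when any of its promoters matched (12 promoters for the 10 genes), whereas the percentages are shares of promoters. These matches describe letters only.

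Before the results, several arrays need mention. The share of non-control spots well above background was 82.1% to 89.6% per array. The RPE genes Rpe65 and Tyr were measured on all arrays, with Rpe65 between 2.96 and 4.00 on the log2 scale. On 3 arrays the sex-linked genes went against the male label: mutant 1-year replicate 1 and mutant 1-month replicates 2 and 3. Mutant 1-month replicate 4 had the highest mean of the erythrocyte list (5.72, against -0.71 to 3.18 on the other arrays) and was the highest of its group in 6 of the 9 genes. Wild-type 1-year replicate 2 was the lowest of its group in 8 of 9, and wild-type 1-month replicate 1 in 6 of 9.

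Levels are log2 signals relative to the 75th percentile of each array, which is 0. Each gene has its own probe, so levels compare arrays and not genes. A gene was called when limma's moderated test, adjusted by Benjamini-Hochberg over all 19028 genes, gave a p under 0.05. Because the 10 genes were chosen with results of these arrays known, the adjusted p-values below place each gene among all genes and are a description, not an independent test. In whole tissue, fewer cells of a type and less RNA per cell cannot be told apart.

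The 9 measured genes were higher at 1 year than at 1 month in wild types, between 1.51-fold for Cst7 and 37.7-fold for Itgax, and most were higher in mutants. In mutants 7 of 9 were called higher at 1 year, and 6.7% of all genes were called in that comparison, 3.77% higher. In wild types all 9 were called higher, where 12.4% of all genes were called, 7.31% higher. All 1-year arrays lay above all 1-month arrays in 7 of 9 genes in mutants, against 7.4% of all genes, and in 9 of 9 in wild types, against 9.17% of all genes. The median log2 difference of the 9 genes was 2.01 in mutants, against -0.05 over all genes, and 2.41 in wild types, against -0.03 over all genes. Fewer of the 9 were called between genotypes. At 1 year a single gene, Cst7, was called higher in mutants, where 0.857% of all genes were called (0.61% higher). At 1 month 3 genes, Pirb, Itgax and Lyz2, were called higher in mutants, where 2.71% of all genes were called (2.02% higher). Mutant arrays lay above wild-type arrays without overlap in 1 gene at 1 year, against 4.39% of all genes, and in 3 genes at 1 month, against 5.84%. The median genotype difference of the 9 was -0.51 at 1 year, against -0.01 over all genes, and 0.34 at 1 month, against 0.02 over all genes.

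**Figure D1:**
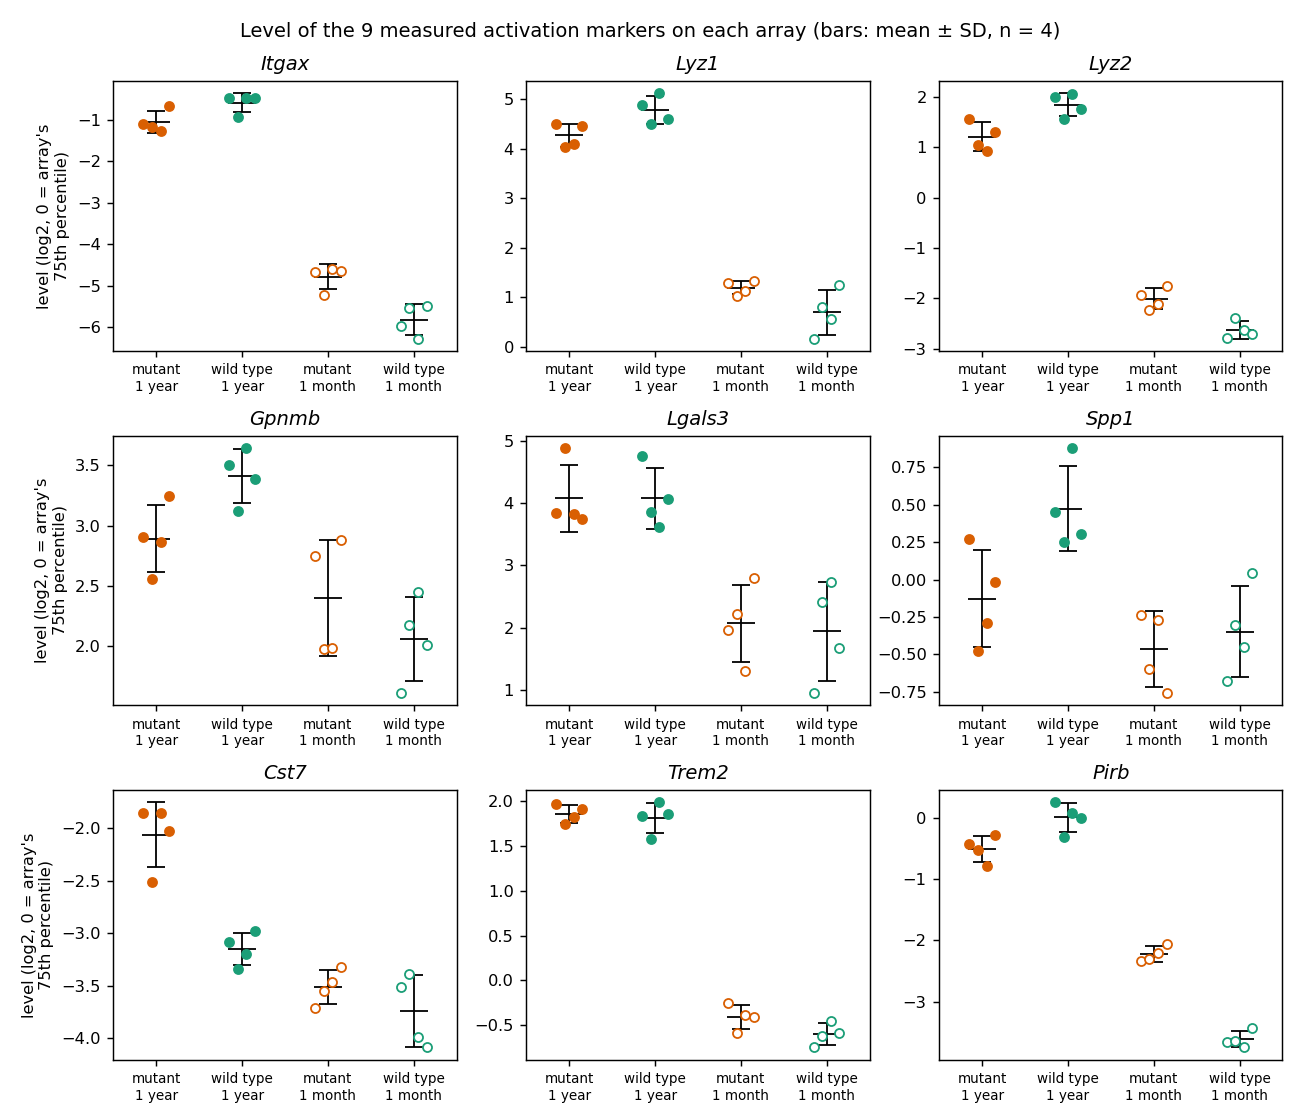
Level of each of the 9 measured genes on each of the 16 arrays, as log2 signal relative to the array's 75th percentile, by group. Points are arrays (filled at 1 year, open at 1 month), and bars are the mean ± SD of 4 arrays. Itgax, Pirb, Lyz1, Lyz2, Trem2 and Lgals3 at 1 year lie above their 1-month arrays in both genotypes, and Cst7 is highest in the 1-year mutants.

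Itgax encodes CD11c, the alpha subunit of a beta-2 integrin that binds complement fragments and is carried by dendritic cells and activated microglia. Its levels were -1.08, -1.17, -1.27 and -0.67 in the 1-year mutants, against -0.46, -0.92, -0.47 and -0.47 in the 1-year wild types. At 1 month they were -4.67, -5.23, -4.58 and -4.63 in mutants, against -5.96, -5.53, -6.27 and -5.50 in wild types. At 1 year the genotypes overlapped, with 3 mutant arrays below all wild-type arrays, whereas at 1 month every mutant array lay above every wild-type array. The difference with age was 3.73 ± 0.20 in mutants (SE, 13.3-fold, adjusted p = 5.35e-08) and 5.24 ± 0.20 in wild types (37.7-fold, adjusted p = 7.17e-10). In either genotype Itgax ranked 2 among the 19028 genes, counted from the largest rise with age. The genotype difference was -0.47 ± 0.20 at 1 year (adjusted p = 0.368) and 1.04 ± 0.20 at 1 month (2.05-fold, adjusted p = 0.0138). The wild-type 1-month level lay close to background, with 3 of 4 arrays well above it, and after normexp and quantile normalization the 1-month genotype difference was 0.29 ± 0.11 and not called (adjusted p = 0.164). The call was also lost without the 3 arrays that went against the sex label (1.17, adjusted p = 0.0544) and with only the 1-month arrays in the fit (1.04, adjusted p = 0.0765). Those fits called 133 and 161 genes of all kinds at 1 month, against 516 in the main fit. With the pattern of the sex-linked genes as a covariate the 1-month Itgax call stood.

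Pirb, paired immunoglobulin-like receptor B, is an inhibitory receptor of myeloid and B cells that binds MHC class I and recruits the phosphatase Ptpn6. Its levels were -0.43, -0.53, -0.79 and -0.29 in the 1-year mutants, against 0.25, -0.31, 0.08 and -0.01 in the 1-year wild types. The 1-month levels were -2.34, -2.31, -2.20 and -2.06 in mutants, against -3.66, -3.63, -3.73 and -3.42 in wild types. The 1-month groups stood apart by over 1 unit, the widest gap among the 9 genes, while at 1 year mutant replicate 4 reached the range of wild types. Pirb was 1.38 ± 0.13 higher in mutants at 1 month (2.61-fold, adjusted p = 6.5e-05), and 1.41 higher without the 3 arrays that went against the sex label (adjusted p = 0.0057). At 1 year the difference was -0.51 ± 0.13 (adjusted p = 0.0843). The difference with age was 1.72 ± 0.13 in mutants (3.29-fold, adjusted p = 2.53e-06) and 3.61 ± 0.13 in wild types (12.2-fold, adjusted p = 4.23e-10). The related receptor genes Pira2 and Lilrb4a were measured by probes of their own. Pira2 differed by -0.13 ± 0.13 between genotypes at 1 month (adjusted p = 0.682) and Lilrb4a by 0.85 ± 0.29 (adjusted p = 0.166). How far the Pirb probe also binds transcripts of the near-identical Pira genes was not tested.

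Trem2 encodes the lipid-sensing receptor whose signal drives the activated state. Its levels were 1.97, 1.74, 1.82 and 1.91 in the 1-year mutants, against 1.83, 1.58, 1.99 and 1.86 in the 1-year wild types. At 1 month they were -0.25, -0.59, -0.38 and -0.41 in mutants, against -0.75, -0.62, -0.45 and -0.58 in wild types. The genotypes overlapped at both ages, and every 1-year array lay above every 1-month array. Trem2 rose with age by 2.27 ± 0.10 in mutants (4.82-fold, adjusted p = 1.27e-08) and by 2.41 ± 0.10 in wild types (5.33-fold, adjusted p = 2.16e-09). Its genotype difference had an interval (95%, unadjusted) of -0.17 to 0.26 at 1 year and -0.02 to 0.41 at 1 month, and neither was called (adjusted p = 0.903 and 0.389).

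Lyz2 encodes lysozyme M, the bactericidal enzyme of macrophages and neutrophils, and Lyz1 encodes lysozyme P, best known from Paneth cells of the gut. The genes are close in sequence, and how far each probe binds the other's transcript was not tested. Lyz2 lay at 1.56, 1.05, 0.91 and 1.31 in the 1-year mutants, against 1.99, 1.56, 2.05 and 1.76 in the 1-year wild types. At 1 month it lay at -1.92, -2.22, -2.12 and -1.76 in mutants, against -2.78, -2.38, -2.62 and -2.70 in wild types. Mutant arrays were thus higher at 1 month without overlap, and at 1 year the highest mutant array just reached the lowest wild-type array. The genotype difference of Lyz2 was -0.63 ± 0.15 at 1 year (adjusted p = 0.0771) and 0.62 ± 0.15 at 1 month (1.53-fold, adjusted p = 0.0497). The 1-month call stood at the threshold: it held in 4 of 25 alternative settings and was lost when any of the 8 arrays of 1-month mice was left out (adjusted p = 0.0517 to 0.152). Without the 3 arrays that went against the sex label the 1-month value was 0.78, with an adjusted p of 0.0632. That fit called 133 genes of all kinds, against 516 with all arrays. With the pattern of the sex-linked genes as a covariate the 1-month Lyz2 difference was not called.

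Lyz1 lay at 4.49, 4.04, 4.08 and 4.45 in the 1-year mutants, against 4.88, 4.50, 5.11 and 4.60 in the 1-year wild types. At 1 month it lay at 1.28, 1.04, 1.13 and 1.33 in mutants, against 0.17, 0.80, 0.57 and 1.26 in wild types. At 1 year all mutant arrays lay below all wild-type arrays, with 4.49 and 4.50 at the nearest pair, and 3.44% of all genes were lower without overlap there. The genotype difference of Lyz1 was -0.51 ± 0.20 at 1 year (adjusted p = 0.325) and 0.49 ± 0.20 at 1 month (adjusted p = 0.249), so neither was called. With age Lyz2 rose by 3.21 ± 0.15 in mutants (9.27-fold, adjusted p = 2.91e-08) and by 4.46 ± 0.15 in wild types (22.0-fold, adjusted p = 4.23e-10). Lyz1 rose by 3.07 ± 0.20 in mutants (8.40-fold, adjusted p = 5.28e-07) and by 4.07 ± 0.20 in wild types (16.8-fold, adjusted p = 1.11e-08).

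Cst7 encodes cystatin F, a lysosomal inhibitor of cathepsins, and it was the single gene of the 9 called between genotypes at 1 year. Its levels were -1.86, -2.51, -1.85 and -2.03 in the 1-year mutants, against -3.08, -3.34, -3.20 and -2.98 in the 1-year wild types. The 1-month levels were -3.71, -3.55, -3.46 and -3.32 in mutants, against -3.51, -3.39, -3.99 and -4.09 in wild types. All 1-year mutant arrays lay above the other 12 arrays, and the 1-month genotypes overlapped. Cst7 was 1.09 ± 0.17 higher in mutants at 1 year (2.13-fold, adjusted p = 0.00653) and 0.23 ± 0.17 at 1 month (adjusted p = 0.573). The 1-year value was 1.02 with an adjusted p of 0.0665 without the 3 arrays that went against the sex label. That fit called 78 genes of all kinds at 1 year, against 163 with all arrays. With the pattern of the sex-linked genes as a covariate the 1-year Cst7 call stood. With age Cst7 rose by 1.45 ± 0.17 in mutants (2.73-fold, adjusted p = 0.000135) and by 0.59 ± 0.17 in wild types (1.51-fold, adjusted p = 0.0379). The wild-type call was lost without any of 5 arrays (wild-type 1-year replicates 1, 3 and 4 and wild-type 1-month replicates 3 and 4, adjusted p = 0.0594 to 0.104) and without the 3 arrays against the sex label (0.074).

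**Figure D2:**
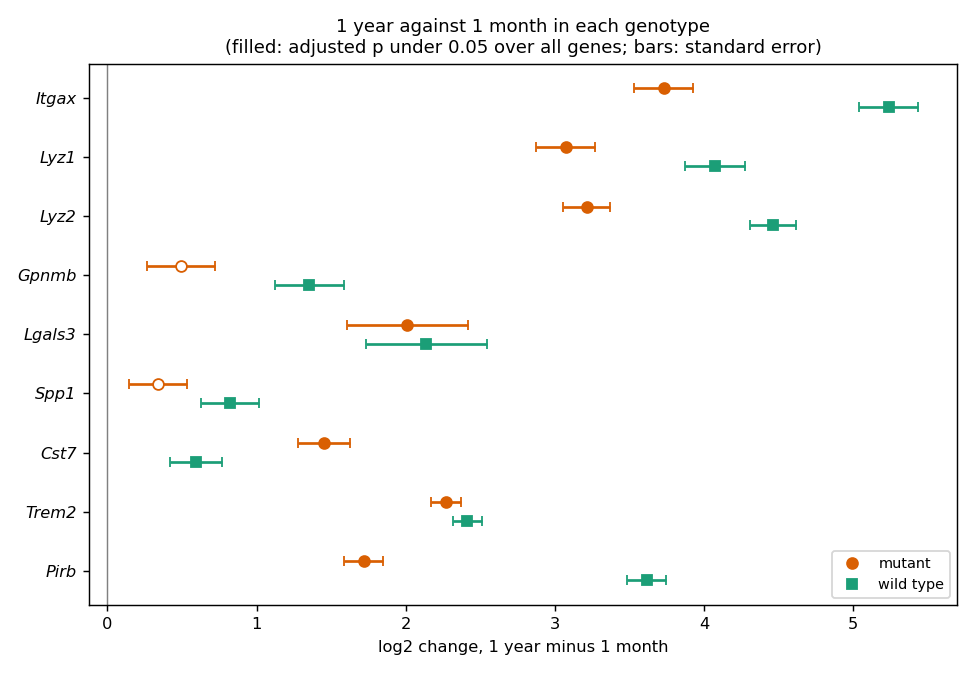
Log2 difference between 1 year and 1 month in mutants (circles) and in wild types (squares) for the 9 measured genes. Bars are standard errors, and filled marks are adjusted p-values under 0.05 over all genes. Itgax, the lysozymes and Pirb lie furthest from 0 in wild types, and Cst7 is the gene with the larger difference in mutants (1.45, against 0.59 in wild types).

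Gpnmb encodes a transmembrane glycoprotein of phagocytes and pigment cells that is linked to lysosomal load. Its levels were 2.90, 2.56, 2.86 and 3.24 in the 1-year mutants, against 3.50, 3.12, 3.65 and 3.38 in the 1-year wild types. At 1 month they were 2.75, 1.98, 1.99 and 2.88 in mutants, against 1.61, 2.17, 2.45 and 2.01 in wild types. The genotypes overlapped at both ages, and the 1-month mutants split into a higher and a lower pair of arrays. Between genotypes Gpnmb differed by -0.52 ± 0.23 at 1 year (adjusted p = 0.404) and by 0.34 ± 0.23 at 1 month (adjusted p = 0.53), neither called. Gpnmb rose with age by 1.35 ± 0.23 in wild types (2.55-fold, adjusted p = 0.00139), and the difference in mutants was 0.49 ± 0.23 (adjusted p = 0.239). The pigment gene list, 10 genes of melanin synthesis that include its close relative Pmel, had group means of 1.74 ± 0.20 in the 1-year mutants, 2.09 ± 0.20 in the 1-year wild types, 2.21 ± 0.21 in the 1-month mutants and 1.59 ± 0.29 in the 1-month wild types (SD). The part of pigment cells in the values of Gpnmb was not tested further than by the covariate of pigment and RPE genes, under which its difference with age was 0.85 ± 0.21 in mutants (adjusted p = 0.0359) and 0.86 ± 0.24 in wild types (adjusted p = 0.0536).

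Lgals3 encodes galectin-3, a sugar-binding protein that gathers at damaged lysosomes and is secreted by activated microglia. Its levels were 3.84, 4.89, 3.82 and 3.75 in the 1-year mutants, against 4.76, 3.85, 3.62 and 4.07 in the 1-year wild types. The 1-month levels were 1.96, 2.21, 1.30 and 2.79 in mutants, against 0.95, 2.41, 2.72 and 1.67 in wild types. The genotypes overlapped fully, and each group spread over more than 1 unit, the widest spread of the 9 genes. Between genotypes Lgals3 differed by -0.0003 ± 0.41 at 1 year and by 0.13 ± 0.41 at 1 month, neither called. Lgals3 rose with age by 2.01 ± 0.41 in mutants (4.03-fold, adjusted p = 0.00778) and by 2.14 ± 0.41 in wild types (4.40-fold, adjusted p = 0.00318). Without the 3 arrays that went against the sex label the difference in mutants was 1.78 and was not called (adjusted p = 0.169). That fit called 275 genes of all kinds with age in mutants, against 1274 with all arrays. With the pattern of the sex-linked genes as a covariate the Lgals3 call in mutants stood. Within a group, the arrays with higher Lgals3 mostly had higher levels of keratin Krt5, an epithelial gene. Between groups this did not hold throughout. Wild-type 1-year replicate 3 had the lowest Krt5 of all arrays (1.90), and its Lgals3 (3.62) lay above every 1-month array. Krt5 lay at 5.59, 7.44, 5.73 and 4.73 in the 1-year mutants, against 6.69, 5.30, 1.90 and 5.61 in the 1-year wild types, and at 3.99, 4.36, 2.20 and 5.45 in the 1-month mutants, against 2.18, 4.24 and 2.93 on 1-month wild-type replicates 1, 2 and 4, with replicate 3 the highest of its group in both genes. Within groups, with group means removed, Lgals3 and Krt5 had a Pearson r of 0.87 over the 16 arrays, which share the dissection and hybridisation of each sample. The part of epithelial tissue in Lgals3 was not tested.

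Spp1 encodes osteopontin, a secreted adhesion protein of activated microglia and of retinal ganglion cells. Its levels were 0.27, -0.47, -0.29 and -0.02 in the 1-year mutants, against 0.45, 0.25, 0.88 and 0.31 in the 1-year wild types. At 1 month they were -0.24, -0.59, -0.27 and -0.76 in mutants, against -0.68, -0.31, -0.45 and 0.04 in wild types. The 1-year wild types lay above all 1-month wild types, and the mutant ages overlapped. Between genotypes Spp1 differed by -0.60 ± 0.20 at 1 year (adjusted p = 0.208) and by -0.12 ± 0.20 at 1 month (adjusted p = 0.836), neither called. Spp1 rose with age by 0.82 ± 0.20 in wild types (1.77-fold, adjusted p = 0.0126), and the difference in mutants was 0.34 ± 0.20 (adjusted p = 0.352). With the mean of pigment and RPE genes as a covariate the call stood in mutants and not in wild types, with 0.70 ± 0.15 in mutants (adjusted p = 0.0157) and 0.32 ± 0.17 in wild types (adjusted p = 0.282). Of 10 ganglion cell genes none was called with age in mutants and 1 was lower in wild types (Isl1, -0.68 ± 0.12), with a median of -0.38 in mutants and -0.19 in wild types.

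Whether the genotype difference itself changed with age was tested as the 1-year effect minus the 1-month effect, for which 0.42% of all genes were called (0.142% higher and 0.279% lower). Of the 9 genes 3 were called, all lower. The values were -1.90 ± 0.18 for Pirb (adjusted p = 0.000438), -1.51 ± 0.28 for Itgax (adjusted p = 0.032) and -1.25 ± 0.22 for Lyz2 (adjusted p = 0.0253). Each of the 3 had a negative genotype difference at 1 year, none of them called, and a positive, called difference at 1 month. The Itgax call held in 13 of 31 alternative settings. It was lost after normexp and quantile normalization (-0.65, adjusted p = 0.065), after quantile normalization of the processed signal (-1.64, adjusted p = 0.0744) and in the values of the authors' deposited table (-1.64, adjusted p = 0.0742). It was also lost without mutant 1-year replicate 1, 2 or 3, wild-type 1-year replicate 1 or 3, mutant 1-month replicate 1 or 3, or wild-type 1-month replicate 1 or 3 (adjusted p = 0.0542 to 0.0819). The Lyz2 call was lost without mutant 1-year replicate 2 or 3, wild-type 1-year replicate 1 or 3, mutant 1-month replicate 1, or wild-type 1-month replicate 1 or 3 (adjusted p = 0.0522 to 0.065). Over 32 settings the Lyz2 call held in 19 and the Pirb call in 28, and Pirb was called whichever single array was left out. Without the 3 arrays that went against the sex label, Pirb (-1.95, adjusted p = 0.0108) and Lyz2 (-1.53, adjusted p = 0.0342) were called and Itgax (-1.62, adjusted p = 0.119) was not. That fit called 12 genes of all kinds, against 80 with all arrays. With the pattern of the sex-linked genes as a covariate Pirb, Itgax and Lyz2 were all called. Cst7 was the only measured gene of positive sign, at 0.86 ± 0.25 (adjusted p = 0.161). Lyz1 (-1.002 ± 0.28, adjusted p = 0.157) and Gpnmb (-0.86 ± 0.33, adjusted p = 0.32) had negative values that were not called. So had Spp1 (-0.48 ± 0.28, adjusted p = 0.598) and Lgals3 (-0.13 ± 0.57, adjusted p = 0.976). For Trem2 the value was -0.14 ± 0.14 (adjusted p = 0.8293), with a 95% interval of -0.45 to 0.16. The median of the 9 was -0.86, against -0.02 over all genes.

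**Figure D3:**
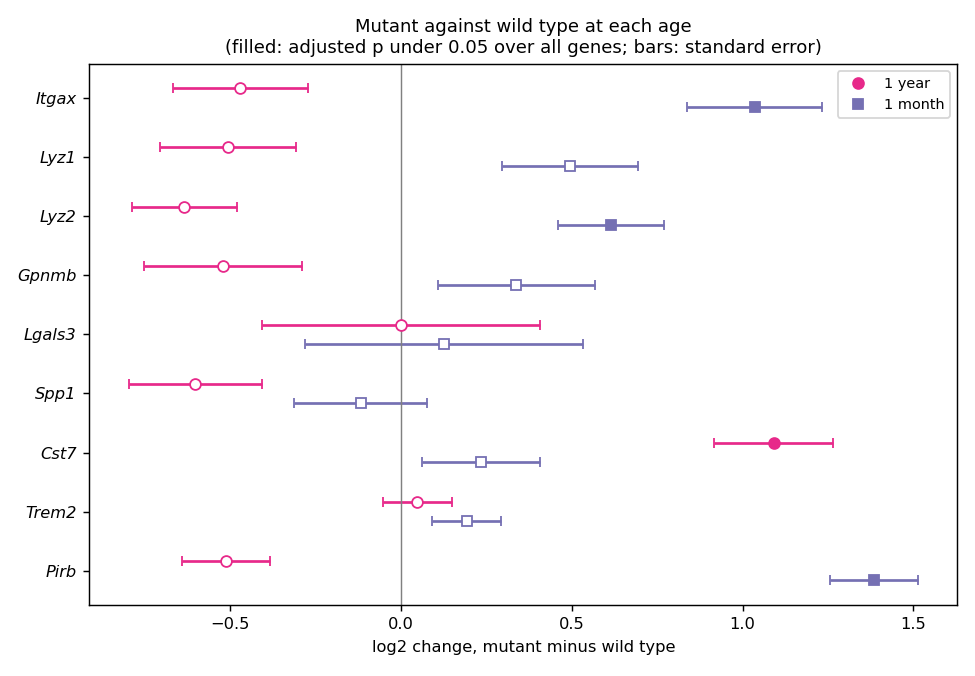
Log2 difference between mutants and wild types at 1 year (circles) and at 1 month (squares) for the 9 measured genes. Bars are standard errors, and filled marks are adjusted p-values under 0.05 over all genes. Pirb (1.38), Itgax (1.04) and Lyz2 (0.62) are filled at 1 month, and Cst7 (1.09) is filled at 1 year.

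Genes of microglia and macrophages in general moved in the same comparisons. Their list includes Tyrobp and Fcer1g, which also stand in the chain below Trem2, so it is not free of activation. Of 18 tested, 13 were called higher with age in mutants (median 0.91) and 15 in wild types (median 1.43). None was called between genotypes at 1 year (median -0.09), and 8 were called higher in mutants at 1 month (median 0.39). Aif1, the microglial marker Iba1, was 1.03 ± 0.13 higher in mutants at 1 month (adjusted p = 0.000686), and Csf1r, the receptor that keeps microglia alive, was 0.73 ± 0.09 higher (adjusted p = 0.000582). The mean of this list lay between 0.61 and 0.87 in the 1-year mutants, between 0.61 and 0.97 in the 1-year wild types, between -0.27 and -0.03 in the 1-month mutants and between -0.61 and -0.45 in the 1-month wild types. With that mean as a covariate, the 1-month genotype difference was 0.85 ± 0.16 for Pirb, 0.17 ± 0.23 for Itgax and -0.071 ± 0.18 for Lyz2, and none was called (adjusted p = 0.153, 1 and 1). Under that covariate only 7 of the 19028 genes were called at 1 month, against 516 without it. Under the same covariate Cst7 at 1 year was still called. The difference of effects in Adgre1, the macrophage marker F4/80, was -1.29 ± 0.24 (adjusted p = 0.0323), the single call of the list there.

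Markers of resting microglia had smaller median differences with age than the 9 activation genes, but those were chosen with results of these arrays known. Further genes of the activated state had medians nearer to the resting list, 0.42 in mutants and 0.66 in wild types. Of 13 resting markers tested, 4 were called higher with age in mutants (median 0.30), and 3 higher and 1 lower in wild types (median 0.40). Between genotypes 4 were higher in mutants at 1 year (median 0.24) and 3 at 1 month (median 0.35). At 1 year the 4 were Sall1 (0.89 ± 0.17), P2ry13 (0.74 ± 0.15), Gpr34 (0.75 ± 0.16) and Cx3cr1 (0.89 ± 0.19). Sall1, a factor that maintains microglial identity, was also the gene that fell with age in wild types, by 0.87. Tmem119 and P2ry12, the most used markers of resting microglia, were called in none of the comparisons, with P2ry12 at 0.17 ± 0.35 between genotypes at 1 year and 0.35 ± 0.35 at 1 month.

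Further genes of the activated state were called for 14 of 29 with age in mutants (median 0.42) and 17 of 29 in wild types (median 0.66), all higher. Atp6v0d2, a subunit of the lysosomal proton pump, rose by 4.08 ± 0.43 in mutants and by 5.47 ± 0.43 in wild types. Lilrb4a rose by 2.002 ± 0.29 in mutants and by 3.11 ± 0.29 in wild types, and the scavenger receptor gene Cd36 rose by 1.40 ± 0.15 in mutants and by 1.52 ± 0.15 in wild types. Lpl, the lipoprotein lipase of lipid-laden microglia, was not called, at 0.14 ± 0.09 in mutants and 0.08 ± 0.09 in wild types. Between genotypes none of the 29 was called at 1 year (median -0.05). At 1 month 3 were higher in mutants, Plin2, Csf1 and Cd52, and the cholesterol exporter gene Abca1 was lower (-0.90 ± 0.09, adjusted p = 0.000169), with a median of 0.27.

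Genes of the signalling chain below Trem2 were mostly higher at 1 year. Of 12 genes tested, 8 were called higher with age in mutants (median 0.69) and 10 in wild types (median 0.93). The adaptor gene Tyrobp rose by 1.70 ± 0.15 in mutants and by 2.41 ± 0.15 in wild types. Between genotypes none was called at 1 year (median -0.08), and 4 were higher in mutants at 1 month (Vav1, Ptpn6, Fcer1g and Btk, median 0.35). Ptpn6, the phosphatase that Pirb recruits, was 0.79 ± 0.17 higher at 1 month (adjusted p = 0.0257). Of 10 integrins and partners of osteopontin and galectin-3, Itgb2, the beta subunit that pairs with CD11c, rose with age by 1.18 ± 0.14 in mutants and 1.62 ± 0.14 in wild types. Itgb2 differed by 0.16 ± 0.14 between genotypes at 1 month and was not called, and Lgals3bp (1.00 ± 0.22) was the single gene of that list called there. No gene of this list was called at 1 year (median -0.01). Of the 4 MITF and TFE factor genes, Mitf alone was called, rising with age in wild types by 1.02 ± 0.19.

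**Figure D4:**
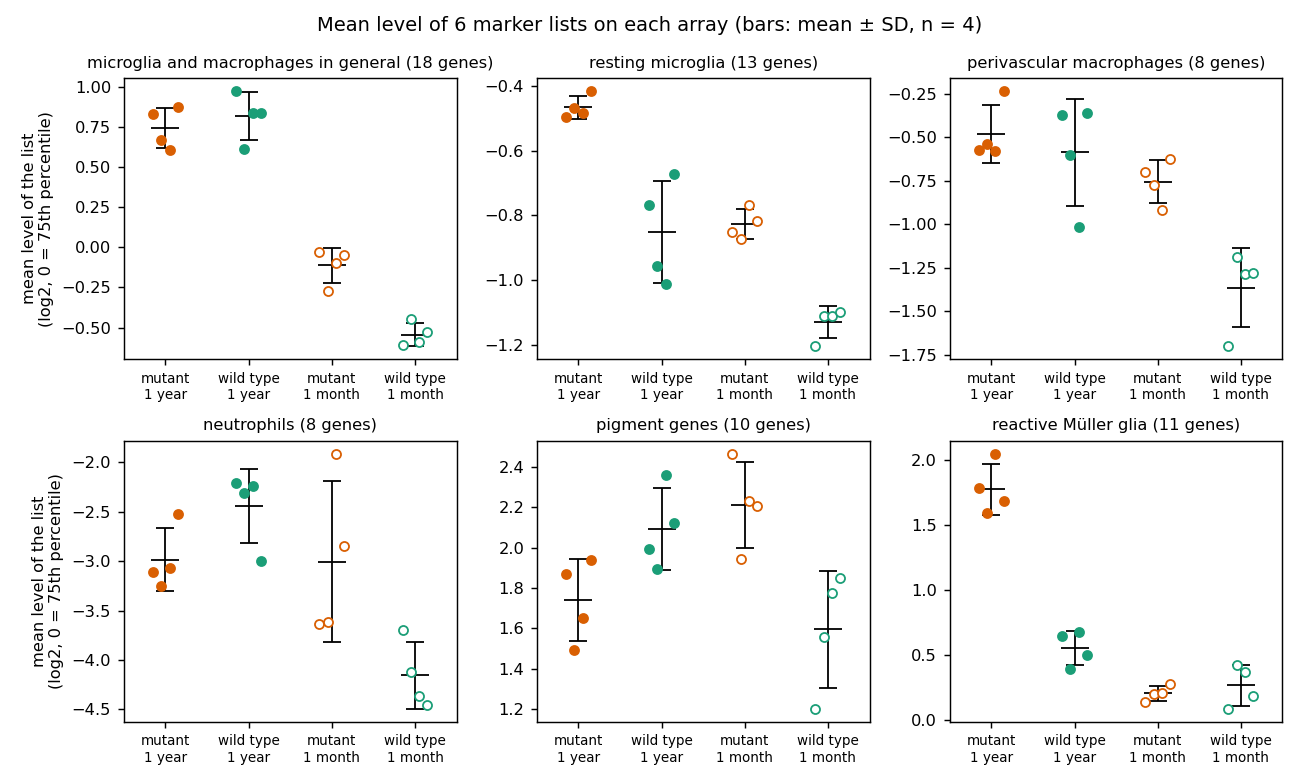
Mean level of 6 marker lists on each array, as log2 signal relative to the array's 75th percentile. Points are arrays, and bars are the mean ± SD of 4 arrays in each group. The list of microglia and macrophages in general is higher at 1 year in both genotypes, and the list of reactive Müller glia is highest in the 1-year mutants (1.78 ± 0.20).

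Markers of other cells that could carry these genes moved with some of the same comparisons, and their part in the results was not tested. Of 8 perivascular macrophage genes, 5 were higher in mutants at 1 month, among them Mrc1 (0.81 ± 0.20) and Pf4 (1.28 ± 0.20), with a median of 0.74, and none was called at 1 year (median 0.09). The 8 neutrophil genes, a further source of Lyz2, had list means of -3.25 to -2.52 in the 1-year mutants, -3.00 to -2.21 in the 1-year wild types, -3.63 to -1.92 in the 1-month mutants and -4.45 to -3.69 in the 1-month wild types. S100a8 and S100a9 were higher in mutants at 1 month (3.26 ± 0.71 and 3.02 ± 0.73) and were the 2 called there (median 0.51). With age none of the neutrophil genes was called in mutants (median -0.13) and 4 were higher in wild types (median 1.47), and of the perivascular genes 1 was called in mutants (Ms4a7, 1.99 ± 0.18) and 4 higher and 1 lower in wild types (median 0.78). Of 7 monocyte genes 2 were called higher in mutants at 1 month, Fn1 among them, with a list median near 0, and none was called at 1 year, with Ccr2, the receptor that draws monocytes into tissue, at -0.29 ± 0.15 and a list median of -0.15. None of 6 dendritic cell genes and 9 lymphocyte genes was called between genotypes, with medians of -0.23 and -0.19 at 1 year and 0.01 and -0.21 at 1 month. With age no monocyte, dendritic cell or lymphocyte gene was called in mutants (medians -0.17, 0.09 and -0.08). In wild types 2 monocyte genes, 1 dendritic cell gene and 1 lymphocyte gene were called higher with age (list medians 0.07, 0.10 and -0.23). Of the other relatives of the 10 genes, 3 of 24 were called at 1 month, the galectins Lgals9 and Lgals1 and Pmel, all higher in mutants, and none at 1 year.

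Pigment and RPE genes were also higher in mutants at 1 month, for 5 of 10 and 4 of 10 genes (medians 0.52 and 0.36), and for none at 1 year (medians -0.42 and 0.00). With their joint mean as a covariate the 1-month difference remained called for Pirb, while for Itgax it was 0.63 ± 0.24 (adjusted p = 0.418) and for Lyz2 0.30 ± 0.19 (adjusted p = 0.662). Under that covariate 61 of the 19028 genes were called at 1 month, against 516 without it. The genes listed for reactive Müller glia differed most at 1 year, the age at which Cst7 was higher. Which cells made their transcripts was not tested. Of the list 6 of 11 were called higher in mutants, led by the endothelin gene Edn2 (4.06 ± 0.27) and the iron-binding Lcn2 (2.68 ± 0.30), with a median of 0.87. At 1 month 1 was lower and none higher (Cebpd, -1.21 ± 0.30). Müller glia markers proper had 2 of 10 called higher at either age, and 10 rod genes had 1 lower in mutants at 1 year (Gnat1, -0.33 ± 0.06) and none at 1 month. Cornea and lens genes (8) and erythrocyte genes (6) had no call between genotypes, with medians of 1.32 and -0.88 at 1 year and -0.57 and 2.36 at 1 month.

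Across the 16 arrays, the genes most like the mean standardised profile of the 9 were Ms4a7 (Pearson r = 0.991), Tyrobp (0.990), Mpeg1 (0.987), Fcer1g (0.985) and Creg1 (0.985). Ms4a7 is a membrane protein of macrophages, Fcer1g the signalling chain of Fc receptors and Mpeg1 a pore-forming protein of macrophages. The arrays fall into 2 clusters by age, so these values mostly state that the genes share the age difference. The profile lay between 0.58 and 1.097 on all 1-year arrays and between -1.29 and -0.54 on all 1-month arrays.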

How the data were processed

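RNA of 16 samples was measured on single-colour Agilent arrays. Per the file headers, the scanner files hold spot intensity, background-subtracted and detrended by Agilent Feature Extraction 11.0.1.1, with probes designed on build mm9. A table of log2 values deposited by the authors served as an alternative (its normalization software is not given in the sources used here). From the processed intensity, spots marked as outliers were left out (93 to 136 per array), values were put on the log2 scale relative to the 75th percentile of their array, and spots of a probe were averaged. Probes were named by RefSeq accession (28446 of 55681 had no match). Those well above background on at least 4 of 16 arrays were kept (49238 probes, 25082 named), and the brightest probe stood for a gene, giving 19028 genes. The 75th percentiles ran from 603 to 994, at most 2 spots per array were saturated, and the number of arrays limits the precision. Errors beside log2 changes are standard errors from limma, and errors beside means are SDs.

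The model of 4 group means per gene was run in limma 3.58.1 under R 4.3.3, with files read by data.table version 1.17.8, and 5 contrasts: mutant against wild type at each age, the difference between these, and 1 year against 1 month in each genotype. The test was two-sided, with Benjamini-Hochberg adjustment over 19028 genes. On simulated data for the 1-month genotype comparison (19012 genes), the procedure called 29 of 67 genes changed by 0.5 on the log2 scale, 53 of 67 changed by 1 and 61 of 66 changed by 2, with 8 false calls. The simulated noise was independent for each gene, so variation that genes of an array share, such as from tissue content, was not in it. The 2 slides each held 2 arrays of every group. The labels give 4 mice per genotype and age. Replicate numbers did not pair the arrays: same-numbered mutant and wild-type arrays had correlations of deviations between -0.03 and 0.16 at 1 year and between -0.54 and 0.06 at 1 month.

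The 10 genes and the 20 marker lists (235 genes) were chosen with earlier results of these data known. Named from each list were the first 2 tested genes and up to 4 further called genes with the smallest adjusted p in a comparison, and the 5 genes whose profile was most like the set. Alternatives were normexp with quantile normalization, quantile or median scaling, the deposited matrix, other filters and probe rules, slide, array row, sex pattern or replicate number in the fit, slides alone, only the groups compared, arrays left out, and the mean of myeloid or of pigment and RPE genes as a covariate. Promoter sequences are from RefSeq (GRCm38.p6), 250 bases before to 50 after a start, and all 10 genes matched. Probe sequences and proteins were not used here.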

Additional observations from a re-analysis of the deposited data

Results flagged for a closer look

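Chance marks about 1 in 20 groups of 4 arrays in this way, and 36 sets of 4 values were looked at, so the first 3 values are given as measured. Lgals3 on mutant 1-year replicate 2 was 4.89, far above the other 3 arrays of its group (3.75 to 3.84), and that array also had the highest Krt5 level of all (7.44). Itgax on wild-type 1-year replicate 2 was -0.92, below the other 3 (-0.47 to -0.46), and this array was lowest of its group in 8 of the 9 genes. Itgax on mutant 1-month replicate 2 was -5.23, below the other 3 (-4.67 to -4.58), on an array whose sex-linked genes went against the label. The causes were not tested.

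The genotype difference of 3 genes changed between the ages by limma's test of the difference: Pirb by -1.9, Itgax by -1.51 and Lyz2 by -1.25 (log2, 1 year minus 1 month, with adjusted p of 0.000438, 0.032 and 0.0253). At 1 year mutants lay below wild types on average in all 3, with none called, and at 1 month above them. Of all genes 0.42% were called in this test, and the 3 genes had been chosen with results of these arrays known. The Itgax call held in 13 of 31 alternative settings, the Lyz2 call in 19 of 32 and the Pirb call in 28 of 32.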

How the results depend on the processing

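Counts of called genes among the 9 depended on several settings. At 1 month, where 3 were called, 1 was called after normexp and quantile normalization, without the 3 arrays that went against the sex label, with the pigment and RPE covariate, and with only the groups compared in the fit, 0 on slide 1 or slide 2 alone, 0 with the myeloid covariate, and 2 whichever single replicate was left out. At 1 year, where 1 was called, 2 were called after normexp and with the myeloid covariate, 0 on either slide alone and without the 3 arrays, and 1 to 2 without single replicates (Lyz2 joined without mutant replicate 1 and Pirb without wild-type replicate 2). For the difference of effects, where 3 were called, 1 was called with median scaling, 0 on either slide alone and with either covariate, and 1 to 3 without single replicates. With age, 4 (slide 1 alone) and 0 (myeloid covariate) were called in mutants against 7, and 5 and 0 in wild types against 9, while the pigment and RPE covariate gave 9 in mutants and 6 in wild types, and without single replicates 7 in every case and 8 to 9. The myeloid covariate turned the sign of Lyz2 at 1 month (-0.071) and, with age in wild types, of Cst7 (-0.26), Gpnmb (-1.04) and Spp1 (-0.83), none called, and in mutants the uncalled age differences of Gpnmb and Spp1 were -1.01 and -0.70 under it. Few genes of any kind were called in several of these fits. At 1 month 1 was called on slide 1, 17 on slide 2 and 7 with the myeloid covariate, of 19028 (516 in the fit reported). The pigment and RPE covariate left 61 there. At 1 year slides 1 and 2 gave 10 and 12, against 163. For the difference of effects slides 1 and 2 gave 1 and 0, either covariate 1 and median scaling 18, against 80. With age the myeloid covariate left 0 in either genotype. Where so few genes were called, a count of 0 says nothing particular about the 9. The myeloid covariate is nearly the age difference itself, so the age values under it have wide errors.

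With the replicate number as a block, the 1-month Lyz2 difference was 0.62 with an adjusted p of 0.0908, Lyz2's difference of effects was -1.25 (adjusted p = 0.0588), and Cst7's age difference in wild types was 0.59 (adjusted p = 0.0762); the numbers do not pair the arrays.

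On each slide alone, with 2 arrays per group, none of the called genotype differences was called. Pirb at 1 month was 1.46 on slide 1 and 1.31 on slide 2, Itgax 0.81 and 1.26, and Lyz2 0.59 and 0.64. Cst7 at 1 year was 1.09 on both. The genotypes did not overlap in these comparisons, so an equal sign on both slides was fixed in advance. Itgax has no value where a probe had to be above background on all 16 arrays.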
